A study of Mus musculus with 36 samples.

Results

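Hippocampal gene expression was compared between knock-in (KI) mice, which carry an engineered base change at Maoa, and wild-type (WT) mice. The 6 libraries are those whose region label is HP, read here as hippocampus: WT HP 1, 2 and 3 and KI HP 1, 2 and 3, out of 36 libraries from 6 brain regions. Both groups were adult C57 mice aged 6 to 7 weeks; the labels give no substrain, and state no other allele, agent or treatment. The series title describes the base change as synonymous and as lowering Maoa transcription and translation, so the comparison asks what differs in hippocampal RNA between the genotypes. The labels do not say whether the libraries came from separate or pooled animals, so each p-value measures only the spread between libraries, which may be technical.

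Monoamine oxidase A is an enzyme of the outer mitochondrial membrane that breaks down serotonin, noradrenaline and dopamine and releases hydrogen peroxide as it does so. Its paralogue Maob lies next to it on the X chromosome. Serotonin and noradrenaline reach the hippocampus through axons from the brainstem, so most of the receptors for these transmitters, but few of the enzymes that make them, are expressed by hippocampal cells themselves. The hippocampus is built of excitatory granule and pyramidal neurons, inhibitory GABAergic interneurons that control them, and glia, among which oligodendrocytes wrap axons in myelin and microglia are the resident immune cells.

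Total estimated counts were 17700411 to 18863503 in WT and 15836479 to 17185648 in KI. Levels are given below as CPM, counts scaled to a common library size by the TMM method, always in the order of libraries 1, 2 and 3. One library did not match its label. KI HP 2 scored 8.38 on 19 tested markers of striatal projection neurons (mean log2 of CPM + 1), against 4.23 to 4.69 in the other 5 libraries and a mean of 7.35 in WT striatum. Its scores for dentate granule cells (3.72, against 5.61 to 6.24), for CA2 and CA3 (3.66, against 4.96 to 5.14) and for CA1 and subiculum (4.51, against 5.48 to 5.76) were the lowest of the 6. Penk, the opioid peptide precursor of striatal neurons, stood at 1572 CPM in it and at 23.0 to 44.9 CPM in the rest. WT striatum is itself a mixed reference by its markers. It scored 6.18 on the thalamus and habenula list (3.13 to 3.83 in the 6 libraries here). On the choroid plexus and ependymal list it scored 5.65 (1.72 to 3.89 here). KI HP 1 and KI HP 3 scored within or close to the WT range on the CA lists and above it on the dentate list. Every comparison was therefore made with all 6 libraries and again without KI HP 2, and the second is the one that names genes here.

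**Figure D1:**
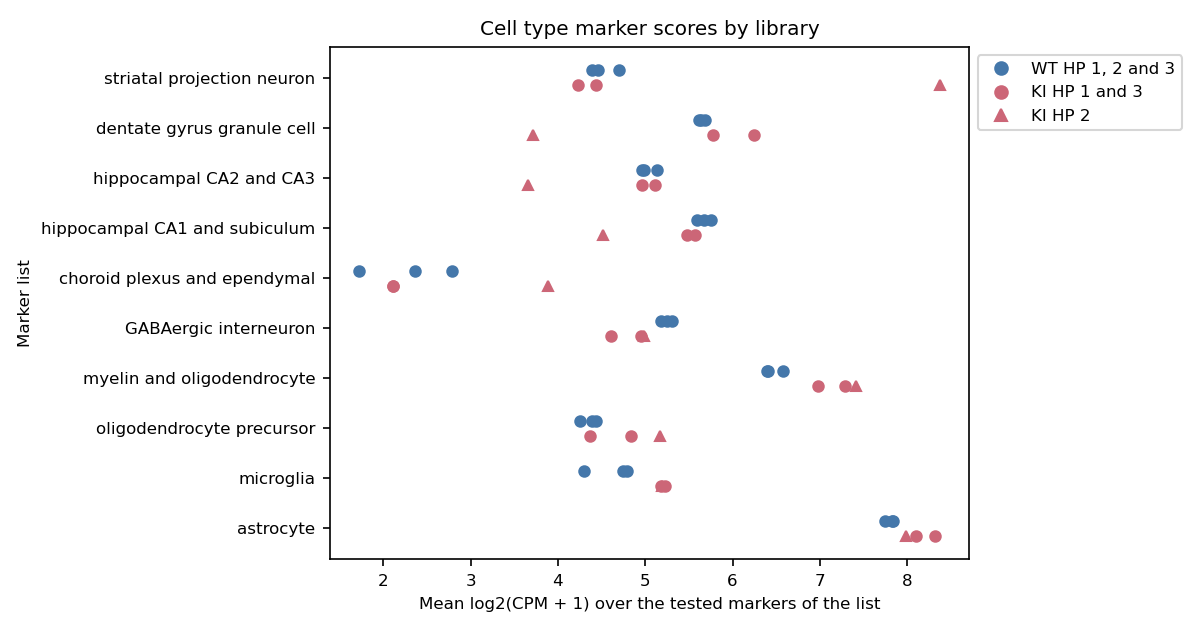
Mean log2(CPM + 1) over the tested markers of 10 cell type lists (horizontal axis), with 1 point per library, WT above KI in each row and KI HP 2 as a triangle. KI HP 2 lies apart on the striatal list at 8.38 and lowest on the 3 hippocampal lists, while all 3 KI libraries lie above the WT libraries on the myelin, microglia and astrocyte lists and below them on the interneuron list.

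With all 6 libraries, edgeR's quasi-likelihood test called 0 of 14144 genes at a Benjamini-Hochberg adjusted p under 0.05 (smallest adjusted p = 0.304, 2012 genes at an unadjusted p under 0.05), DESeq2 called 259 (2.20% of the genes to which it gave an adjusted p; 206 higher, 1.75%, and 53 lower, 0.450%) and limma's voom with sample quality weights called 4 (0.0283%). Those 4 were Lpar1, Pdlim2 and Adamts4, which were higher (0.0212%), and Gabra2, which was lower (0.00707%); KI HP 2 received a weight of 0.170 in that fit, where the highest weight was 2.17. Without KI HP 2, edgeR called 60 of 14280 genes (0.420%), 32 higher (0.224%) and 28 lower (0.196%) in KI. The number rests on single libraries: it was 3 with WT HP 2 also left out, 10 without WT HP 3, 21 without KI HP 3 and 875 without KI HP 1, where in each of the last 2 fits the lone KI library is assumed to vary like the WT group. DESeq2 on all 6 libraries had called 36 of these 60 in the same direction. All 3 KI libraries lay above all 3 WT libraries for 1682 genes (11.9%) and below them for 1711 (12.1%). Of the 32 rises, 29 were non-overlapping in that sense with KI HP 2 included; of the 28 falls, 11 were. In the other 17 falls KI HP 2 stood above at least 1 WT library, and in 14 of the 28 above all 3.

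Maoa, the gene carrying the knock-in (gene 17161, chrX:16619698-16687812 in GRCm38.p6), was not lower in KI. It measured 32.4, 33.4 and 34.7 CPM in WT and 35.8, 46.2 and 38.5 CPM in KI. Every KI library exceeded every WT library, with KI HP 2 the highest, and the gap between the groups was narrow: KI HP 1 stood only just above WT HP 3. The log2 fold change was 0.26 (SE 0.128, edgeR adjusted p = 0.397) and 0.16 without KI HP 2 (SE 0.113, adjusted p = 0.441), so it passed neither test. WT striatum, whose markers KI HP 2 carries, had Maoa at 44.2 CPM. The 1 listed Maoa transcript measured 32.6, 33.5 and 34.99 CPM in WT and 36.1, 46.6 and 39.03 CPM in KI. Levels per gene or transcript do not show the base change itself.

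The 4 other genes within 1 Mb of Maoa that the table lists were also measured. Maob, which breaks down phenylethylamine and dopamine, measured 30.9, 27.8 and 28.2 CPM in WT and 33.1, 43.7 and 39.3 CPM in KI (log2 fold change 0.42, SE 0.135, edgeR adjusted p = 0.313). Its groups did not overlap, and its order of KI libraries was the same as that of Maoa. Efhc2, an EF-hand protein gene of low level, also did not overlap, at 0.905, 1.45 and 1.55 CPM in WT and 3.05, 3.10 and 1.73 CPM in KI (edgeR adjusted p = 0.317). Ndp, encoding norrin, and Fundc1, a mitophagy receptor, overlapped between genotypes. None of the 5 genes was called by edgeR with or without KI HP 2.

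Among 16 tested genes that make, move or break down monoamines, 13 had higher means in KI, with a median log2 fold change of 0.29, or 0.16 without KI HP 2, where the median over all genes was 0.00 with 6 libraries. Of the 16, 5 were higher without overlap (11.9% of all genes were). Aldh1a1 is an aldehyde dehydrogenase that acts on the products of monoamine oxidase and also makes retinoic acid. It was the only one of the 16 called by edgeR without KI HP 2 (0.224% of all genes were called higher there). It measured 70.4, 67.3 and 55.01 CPM in WT and 116 and 227 CPM in KI HP 1 and 3 (log2 fold change 1.43, SE 0.227, adjusted p = 0.0366). KI HP 2, at 26.5 CPM, was below all WT libraries, so the groups overlap when it is kept. Aldh1a1 is also on the list of midbrain dopamine neuron markers, which scored 3.25 in KI HP 1 and 3.39 in KI HP 3 against 3.06 to 3.25 in WT. Qdpr, which regenerates tetrahydrobiopterin, the cofactor of monoamine synthesis, measured 241, 195 and 167 CPM in WT and 316, 338 and 422 CPM in KI, without overlap. It rose by DESeq2 on 6 libraries (0.83, SE 0.207, adjusted p = 0.0109) and stood at an adjusted p of 0.0577 by edgeR without KI HP 2. Qdpr is also abundant in oligodendrocytes. No other gene among the 7 tested for this cofactor was called by either tool. Tph2, which starts serotonin synthesis in brainstem neurons, measured 1.30, 1.34 and 1.07 CPM in WT and 2.35, 0.234 and 3.98 CPM in KI. It was above WT in KI HP 1 and 3 and below it in KI HP 2, and passed DESeq2 without KI HP 2 (adjusted p = 0.0445) but not edgeR (adjusted p = 0.0714).

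Receptors for monoamines lay on the other side. Of 24 tested receptor genes, 15 had lower means in KI with 6 libraries and 20 without KI HP 2 (median log2 fold changes of −0.31 and −0.43), and 6 of them had every KI library below every WT library (12.1% of all genes did). Htr5a, an inhibitory serotonin receptor, measured 12.4, 15.8 and 17.6 CPM in WT and 9.57, 7.72 and 7.51 CPM in KI. It fell by DESeq2 (−0.88, SE 0.235, adjusted p = 0.0201), as did Hrh2, a stimulatory histamine receptor (7.07, 11.5 and 7.86 CPM in WT, 4.11, 4.39 and 2.44 CPM in KI, −1.27, adjusted p = 0.0206). Both sets of libraries were well apart. Adra2a, an inhibitory noradrenaline receptor (16.6, 15.04 and 13.5 against 10.9, 10.5 and 8.09 CPM), and Htr7, a stimulatory serotonin receptor (13.2, 12.5 and 13.2 against 10.2, 6.85 and 5.65 CPM), did not overlap either, but were called by neither edgeR fit nor by DESeq2 on 6 libraries (DESeq2 adjusted p = 0.0992 and 0.0976). Without KI HP 2, DESeq2 called 6 receptor genes lower (2.88% of all genes were), Adra2a among them, and edgeR called 0. The dopamine receptor genes Drd1 and Drd2, which striatal neurons express, reached 199 and 190.1 CPM in KI HP 2, against at most 5.71 and 4.64 CPM in the other 5 libraries.

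The 4 largest rises by the naming rule were of myelin genes and of other genes of oligodendrocytes, the cells that make it. Mbp encodes myelin basic protein, which compacts the myelin sheath. Its level was 1701, 1693 and 1171 CPM in WT and 3523, 6584 and 7763 CPM in KI. All KI libraries lay far above all WT libraries, and KI HP 3 was the highest. WT striatum had Mbp at a mean of 5137 CPM (scaled over all 36 libraries). Without KI HP 2 the log2 fold change was 1.91 (SE 0.275, edgeR adjusted p = 0.0252). Mobp, encoding another compaction protein, measured 128, 131 and 121 CPM in WT and 270.2, 442 and 491 CPM in KI (1.60, SE 0.202, adjusted p = 0.0142). The WT libraries of Mobp were tight and the KI libraries spread widely above them. The mean of Mobp in WT striatum was 453 CPM, close to KI HP 2. Mog, a glycoprotein of the outermost myelin layer, measured 59.6, 48.4 and 50.7 CPM in WT and 128, 115 and 86.6 CPM in KI (1.04, SE 0.160, adjusted p = 0.0354). Here KI HP 1 was highest and KI HP 3 lowest of the KI libraries.

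Bcas1, which marks oligodendrocytes that are starting to myelinate, measured 105, 115 and 69.4 CPM in WT and 206, 293 and 541 CPM in KI, the largest rise of the named genes (log2 fold change 1.97, SE 0.327, edgeR adjusted p = 0.0418). Prr18, an oligodendrocyte gene of little known function, went from 36.3, 32.8 and 25.1 to 56.8, 102 and 141 CPM (1.67, adjusted p = 0.0477). Tmem88b went from 63.9, 56.03 and 61.05 to 99.7, 127 and 85.6 CPM (0.63, adjusted p = 0.0495). None of the 3 genes overlapped between genotypes.

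All 28 genes of the myelin list had higher means in KI with 6 libraries (50.2% of all genes did), with a median log2 fold change of 0.80, and 27 did without KI HP 2 (49.9% of all genes did), with a median of 0.69. Of the 28, 18 were non-overlapping and higher (11.9% of all genes were), 13 were called higher by DESeq2 on 6 libraries (1.75% of all genes were) and 6 by edgeR without KI HP 2 (0.224% of all genes were). Several other rises named by edgeR belong to the same cells. Adamts4, a matrix protease, measured 35.9, 29.4 and 27.00 CPM in WT and 69.7, 90.2 and 66.00 CPM in KI (1.16, SE 0.132, adjusted p = 0.0117). Lpar1, a lysophosphatidic acid receptor, measured 29.2, 27.2 and 25.6 CPM in WT and 52.4, 82.6 and 63.1 CPM in KI (1.09, SE 0.125, adjusted p = 0.0117). For both genes each KI library was well above all WT libraries. In WT striatum Adamts4 had a mean of 103 CPM and Lpar1 one of 81.1 CPM. The deacetylase gene Sirt2 (132, 119 and 105 against 196, 207 and 184 CPM, adjusted p = 0.0477), like Adamts4 and Lpar1, is expressed by oligodendrocytes, and was named after its values were seen.

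Myelin genes did not move in step within the KI group. Mbp, Mobp, Bcas1 and Prr18 were highest in KI HP 3 and lowest in KI HP 1, and so differed from most of the list, of which 22 of 28 genes were lowest in KI HP 3. The list scored 6.40 to 6.58 in WT, and 7.29, 7.42 and 6.98 in KI. WT striatum scored 8.31 on the same list. Of the 32 genes that rose by edgeR without KI HP 2, 17 (53.1%) are at least 2-fold higher in WT striatum than in WT hippocampus, against 9.7% of all tested genes. The striatal neuron list scored 4.23 and 4.44 in KI HP 1 and 3, below or within the WT range of 4.39 to 4.69. None of its tested genes was at 0 in both. The thalamus and habenula list, on which WT striatum scored 6.18, stood at 3.32 in KI HP 1 and 3.79 in KI HP 3. Its WT range was 3.13 to 3.52, so KI HP 3 lay above it. In bulk tissue, more cells of a type and more RNA per cell cannot be told apart, here or for the groups below. The part of tissue makeup in the myelin difference was not tested.

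The transcript table separates the Mbp products by where they start. The Mbp locus is known for a pair of start regions: an upstream start that gives the golli transcripts, which neurons and immune cells also express, and a downstream start that gives the classic myelin proteins. Of 14 listed Mbp transcripts, 8 had a start in the GENCODE annotation. The 6 that start downstream summed to 1611, 1587 and 1080.3 CPM in WT and 3458, 6546 and 7784 CPM in KI. The 2 that start upstream summed to 92.7, 106 and 93.0 CPM in WT and 78.8, 80.3 and 77.1 CPM in KI. The downstream sum was thus higher in every KI library than in any WT library, and the upstream sum lower. The lower upstream sum is that of its main transcript: the other measured 3.81, 2.96 and 3.39 CPM in WT and 2.95, 4.54 and 2.997 CPM in KI, with overlap. The sums were 1426 ± 300 CPM in WT and 5929 ± 2227 CPM in KI for the downstream start, and 97.1 ± 7.44 and 78.7 ± 1.58 CPM for the upstream start (SD, n = 3). No transcript was called by edgeR in 36728 tested (smallest adjusted p for Mbp transcripts 0.549), while DESeq2 called 565 (1.32%), including 4 of the downstream Mbp transcripts at adjusted p-values of 3.22e-07 to 4.2e-05 and neither of the upstream ones (adjusted p = 0.16 for the more abundant). Transcript counts are estimates, so values of single transcripts are less certain than that of the gene.

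**Figure D2:**
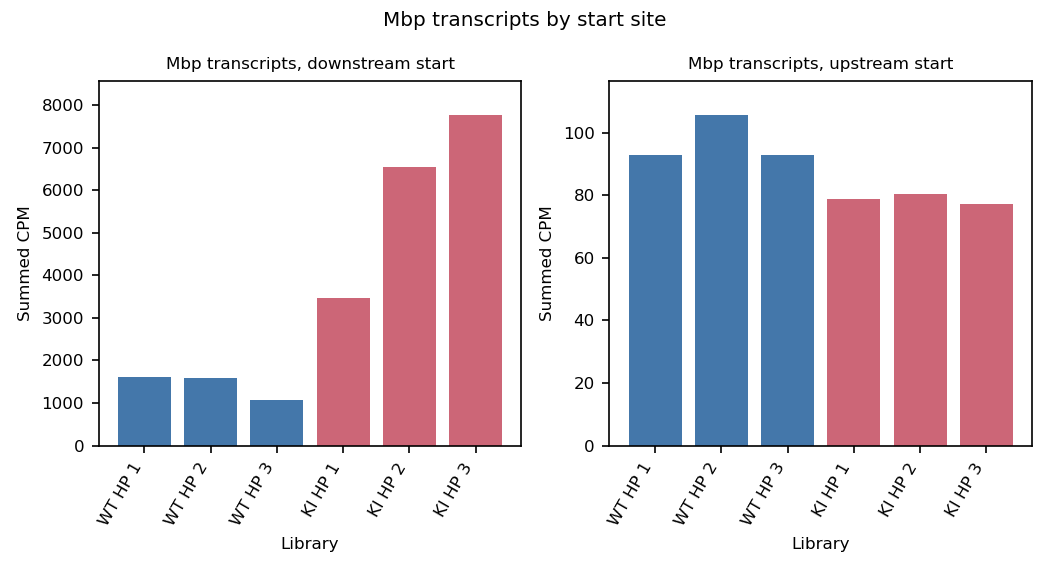
Summed CPM of the 6 Mbp transcripts with the downstream start (left) and of the 2 with the upstream start (right), as 1 bar per library with WT in blue and KI in red. The downstream sum is at least 3458 CPM in KI and at most 1611 CPM in WT, and the upstream sum is at most 80.3 CPM in KI and at least 92.7 CPM in WT.

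Genes of microglia and astrocytes were also higher in KI. All 18 microglial genes had higher means in both fits (median log2 fold changes of 0.63, and 0.66 without KI HP 2), and 16 were higher without overlap (11.9% of all genes were). C1qa, a subunit of the first complement component, measured 42.2, 39.2 and 35.1 CPM in WT and 65.7, 57.6 and 67.2 CPM in KI. It rose by edgeR without KI HP 2 (0.79, SE 0.115, adjusted p = 0.0252). Its partner subunits C1qb and C1qc, the protease gene Ctss and the lysosomal gene Laptm5 rose by DESeq2 on 6 libraries, at log2 fold changes of 0.54 to 0.70. Mpeg1, which encodes a pore-forming protein of macrophages and was named after its values were seen, rose from 23.8, 26.1 and 19.7 to 42.1, 42.95 and 38.2 CPM (edgeR adjusted p = 0.0452). Of 17 astrocyte genes, 16 had higher means (medians 0.37 and 0.42) and 11 were higher without overlap (again against 11.9% of all genes). Apoe, the main lipid carrier made by astrocytes, measured 1599.6, 1469 and 1275 CPM in WT and 2138, 2517 and 2489.5 CPM in KI. It and Aldh1l1, an astrocyte enzyme of folate metabolism, rose by DESeq2 on 6 libraries (adjusted p = 0.00142 and 0.0426), and 0 astrocyte genes were called by edgeR without KI HP 2. Oligodendrocyte precursor genes all had higher means with 6 libraries (13 of 13, median 0.47) and 10 of 13 did without KI HP 2 (median 0.34). This list scored 4.25 to 4.43 in WT and 4.84, 5.17 and 4.37 in KI, so KI HP 3 lay within the WT range and KI HP 2 was the highest. Of its genes Enpp6, a marker of newly forming oligodendrocytes, was called by DESeq2 on 6 libraries (9.10, 7.07 and 7.43 against 17.3, 19.8 and 10.02 CPM, adjusted p = 0.0488). The microglial list scored 4.29 to 4.79 in WT and 5.18 to 5.22 in KI, and 5.12 in WT striatum, and the astrocyte list 7.74 to 7.83 in WT and 7.99 to 8.32 in KI, and 8.14 in WT striatum. Endothelial and pericyte genes were higher in 19 of 20 cases (median 0.61, and 0.41 without KI HP 2), and neither tool called one on 6 libraries.

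**Figure D3:**
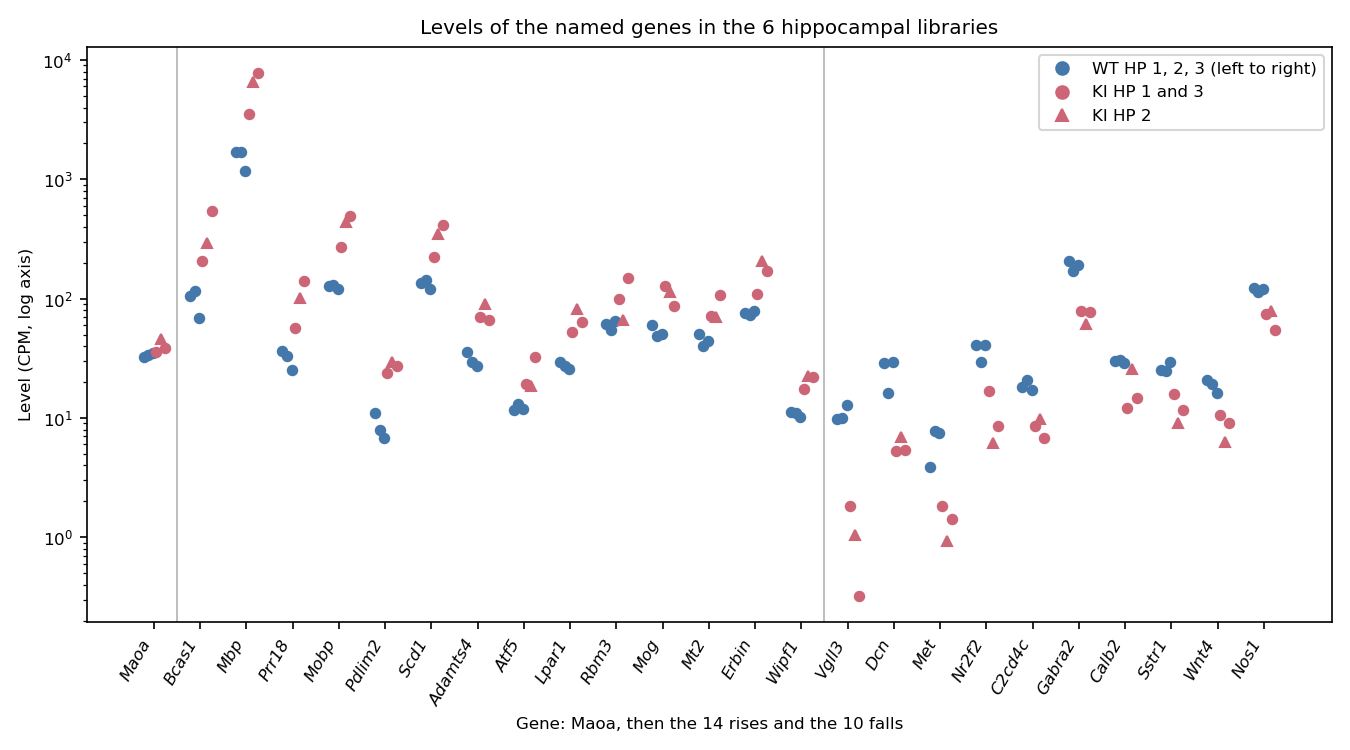
CPM on a log axis for Maoa, the 14 rises and the 10 falls named by the rule, with 1 point per library (WT blue, KI red, KI HP 2 as a triangle). Each of the 25 genes is non-overlapping between genotypes by construction of the rule or, for Maoa, by a narrow margin; the KI points of Bcas1 and Prr18 spread most widely among the rises.

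Genes of cytosolic ribosomal proteins, the protein subunits of the ribosomes that translate nuclear messages, had higher levels in KI. All 79 had higher means in KI in both fits (median log2 fold changes of 0.66, and 0.59 without KI HP 2) and 74 were higher without overlap (11.9% of all genes were). DESeq2 called 41 higher on 6 libraries (1.75% of all genes were) and 67 without KI HP 2 (3.52% of all genes were called higher there), whereas edgeR without KI HP 2 called 0 of them. The smallest p-value of the list was that of Rpl30, at 165, 145 and 137 CPM in WT and 216, 312 and 319 CPM in KI (DESeq2 log2 fold change 0.92, SE 0.203, adjusted p = 0.00281; edgeR without KI HP 2 adjusted p = 0.0566). Rplp0, a stalk protein, had 241, 193 and 182 CPM in WT and 304, 357 and 427 CPM in KI (DESeq2 adjusted p = 0.00925). In both genes WT HP 1 was the highest WT library and KI HP 1 the lowest KI library, without overlap. The list as a whole scored 7.63, 7.34 and 7.25 in WT and 7.78, 8.17 and 8.17 in KI, so the gap between WT HP 1 and KI HP 1 was small beside that between the other libraries. WT striatum scored 7.80.

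Many ribosomal protein messages begin with a run of pyrimidines, the 5′ terminal oligopyrimidine motif, through which their translation is controlled together. Windows around the RefSeq starts (GRCm38.p6) were found for 58 of the 79 genes. A C at the annotated first base followed by at least 4 further C or T letters was present in 14 of 68 windows of these genes (20.6%) and in 2.51% of 32851 windows of all genes, searched on the coding strand only. The 6 genes with the smallest edgeR p-values among those with the run are shown because they let the shared start be seen. Each sequence runs from 15 bases before the annotated start to 15 bases from it on, and capitals mark the run.
Rps27 (chr3:90213634-90213663, minus strand): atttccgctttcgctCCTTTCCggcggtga
Rps21 (chr2:180257364-180257393, plus strand): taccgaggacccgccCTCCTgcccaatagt
Rpl28 (chr7:4792950-4792979, plus strand): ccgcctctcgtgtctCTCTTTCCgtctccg
Rps10 (chr17:27635230-27635259, minus strand): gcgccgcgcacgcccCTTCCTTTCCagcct
Rpl35a (chr16:33056467-33056496, plus strand): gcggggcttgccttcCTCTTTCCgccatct
Rpl35 (chr2:39005117-39005146, minus strand): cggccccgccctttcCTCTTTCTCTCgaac
The runs are 5 to 11 letters long. Of these genes Rps27 measured 98.5, 75.5 and 75.3 CPM in WT and 116, 168 and 162 CPM in KI, and Rps21 176, 148 and 137 and 195, 271 and 271 CPM. In both, all KI libraries were higher than all WT libraries. An annotated start can lie a few bases from the start a cell uses, so a window without the run says only that these letters are not at that base.

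Ribosomal protein messages are short, and gene length moved with genotype. Genes were divided into 4 equal parts by estimated counts per TPM, which rises with transcript length. The median log2 fold change was 0.11 in the shortest part, near 0 and then −0.03 in the next parts, and −0.08 in the longest, and 0.15, 0.02, −0.05 and −0.14 in the same order without KI HP 2. The shortest part held 76 of the 79 ribosomal protein genes and kept a median of 0.10 (0.14 without KI HP 2) when they were left out. The role of length in the ribosomal difference was not tested. Nuclear genes of oxidative phosphorylation had higher means in 64 of 72 cases (median 0.18, and 0.25 without KI HP 2), with 10 higher without overlap, a share near the 11.9% of all genes, and 0 called by DESeq2 on 6 libraries. Mitochondrial ribosomal protein genes had a median of 0.06 (0.15 without KI HP 2), with 2 of 53 higher without overlap, and proteasome genes one of −0.01 (0.13 without KI HP 2), with 0 of 31 higher without overlap. Near-identical pseudogenes of ribosomal protein genes could take or lend reads, depending on how the authors' counting divided them.

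**Figure D4:**
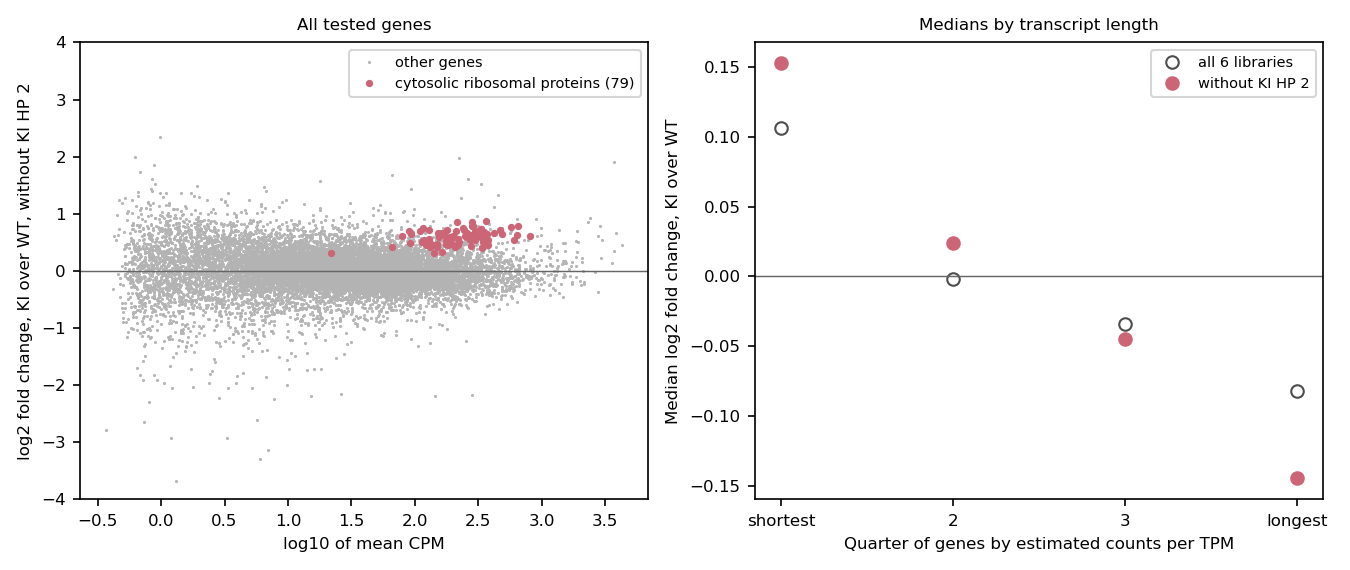
Left: log2 fold change of each tested gene in the fit without KI HP 2 against the log10 of its mean CPM, with the 79 cytosolic ribosomal protein genes in red, all of them above 0. Right: median log2 fold change in 4 equal parts of the genes from shortest to longest (estimated counts per TPM), with all 6 libraries and without KI HP 2; the medians descend from 0.15 to −0.14 in the latter.

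The falls included 2 genes of the interneuron list, Nr2f2 and Calb2. Nr2f2 encodes COUP-TFII, a nuclear receptor found in interneurons born in the caudal ganglionic eminence. It measured 40.8, 29.7 and 40.9 CPM in WT and 16.7, 6.14 and 8.60 CPM in KI (log2 fold change without KI HP 2 −1.54, SE 0.247, edgeR adjusted p = 0.0371). Calb2, the calcium-binding protein calretinin of interneurons and hilar mossy cells, measured 29.96, 30.7 and 28.8 CPM in WT and 12.1, 25.6 and 14.7 CPM in KI (−1.14, SE 0.137, adjusted p = 0.0117). KI HP 2 was close below the WT libraries for Calb2, and with it the log2 fold change was −0.77. WT striatum, whose markers KI HP 2 carries, had Calb2 at 30.7, 214 and 44.9 CPM, so its mean of 96.6 CPM rests on 1 library. The next genes are not on that list. Nos1, the neuronal nitric oxide synthase, measured 122, 113 and 121 CPM in WT and 74.4, 78.2 and 54.6 CPM in KI (−0.87, SE 0.139, adjusted p = 0.0371). Sstr1, a somatostatin receptor, went from 25.04, 24.8 and 29.2 to 15.97, 9.01 and 11.6 CPM (−0.92, adjusted p = 0.0477).

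Of 28 interneuron genes, 18 had lower means with 6 libraries and 23 without KI HP 2 (medians −0.18 and −0.45), and 7 were lower without overlap (12.1% of all genes were): Vip, Cnr1, Kit, Nr2f2, Htr3a, Calb2 and Npr3. Without KI HP 2, DESeq2 called 9 lower (2.88% of all genes were) and 0 higher, among them Gad1 and Gad2, which encode the enzymes that make GABA. Gad1 measured 286, 326 and 340.3 CPM in WT and 257, 604 and 216 CPM in KI (DESeq2 without KI HP 2 adjusted p = 0.035, edgeR 0.123). Kit, the stem cell factor receptor, measured 138, 104 and 161 CPM in WT and 84.6, 36.9 and 32.4 CPM in KI, and fell by DESeq2 on 6 libraries (adjusted p = 0.0209). Npr3, the clearance receptor of natriuretic peptides, measured 20.1, 21.6 and 31.2 CPM in WT and 12.4, 2.93 and 9.89 CPM in KI (DESeq2 adjusted p = 0.0497). Cnr1, the cannabinoid receptor that marks a class of basket cells, measured 238, 214 and 267 and 177, 55.1 and 109.6 CPM, did not overlap, and was called by neither tool on 6 libraries (DESeq2 adjusted p = 0.101). KI HP 1 was the KI library nearest to WT for Kit, Npr3 and Cnr1. The list scored 5.18 to 5.31 in WT and 4.95, 4.98 and 4.60 in KI. Markers of dentate granule cells lay the other way in KI HP 1 and 3, with scores of 5.78 and 6.24 against 5.61 to 5.69 in WT and a median log2 fold change of 0.53 over 19 genes in the fit without KI HP 2, where DESeq2 called 9 of them higher (3.52% of all genes were). Whether the part of the hippocampus sampled bears on the interneuron difference was not tested.

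Gabra2, which encodes a synaptic subunit of GABA-A receptors (chr5:70958392-71095849 in GRCm38.p6), had the smallest edgeR p-value of the genes named here. Its level was 205, 171 and 192 CPM in WT and 79.4, 60.98 and 77.1 CPM in KI. All KI libraries lay far below all WT libraries, and KI HP 2 did not stand apart. WT striatum, whose markers KI HP 2 carries, had Gabra2 at 83.1, 66.6 and 59.7 CPM (scaled over all 36 libraries). The level in KI HP 2 is thus also that of WT striatum. Gabra2 fell in the edgeR fit without KI HP 2 (log2 fold change −1.26, SE 0.122, adjusted p = 0.0111) and by DESeq2 on 6 libraries (adjusted p = 1.04e-11). The main transcript, with 204, 168 and 169 CPM in WT and 78.5, 54.2 and 75.8 CPM in KI, carried the difference. Among the 14 tested receptor subunits 9 had lower means (median −0.27, and −0.39 without KI HP 2). Gabra3 (79.2, 97.97 and 108 against 68.4, 71.6 and 44.8 CPM), Gabrb1 (183, 187 and 229.9 against 155, 145 and 131 CPM) and Gabrb2 (214, 240.1 and 316 against 188, 156 and 175 CPM) were lower without overlap (12.1% of all genes were). They passed neither tool on 6 libraries. All 3 were called lower by DESeq2 without KI HP 2 (adjusted p = 0.0044, 0.025 and 0.0423), where 2.88% of all genes were. Gabrd, the δ subunit of extrasynaptic receptors on granule cells, was higher without overlap (27.6, 36.5 and 29.4 against 36.6, 104 and 53.3 CPM, DESeq2 adjusted p = 0.102), with KI HP 2 far above the rest.

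Gabra2 is also known to be expressed at a lower level in the C57BL/6J substrain than in related C57BL/6 mice, through a variant private to that substrain, so the other genes known to differ between C57BL/6 substrains were read beside it. Of 10 tested genes on that list, 7 had lower means in KI (median −0.31, and −0.17 without KI HP 2) and 4 were lower without overlap (12.1% of all genes were): Gabra2, Nnt, Ipo11 and Ide. Nnt, a mitochondrial transhydrogenase that is partly deleted in C57BL/6J, measured 29.6, 30.2 and 22.8 CPM in WT and 21.1, 19.6 and 20.6 CPM in KI (log2 fold change −0.43, SE 0.140, edgeR adjusted p = 0.313). Wdfy1 measured 18.7, 11.9 and 18.5 CPM in WT and 9.45, 11.5 and 12.6 CPM in KI, with KI HP 3 above WT HP 2 (adjusted p = 0.335). Of this list only Gabra2 was called, by either tool on 6 libraries or without KI HP 2. The labels say C57 for both genotypes, and the part of substrain in the Gabra2 difference was not tested.

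The steepest falls were of genes expressed at low levels. Vgll3, a cofactor of TEAD transcription factors, measured 9.89, 10.1 and 12.8 CPM in WT and 1.82, 1.05 and 0.321 CPM in KI (−3.30 without KI HP 2, SE 0.421, edgeR adjusted p = 0.0147). Every KI library was far below every WT library. Dcn, the matrix proteoglycan decorin, measured 28.6, 16.1 and 29.6 CPM in WT and 5.28, 6.96 and 5.39 CPM in KI (−2.20, SE 0.262, adjusted p = 0.0117). It is also a marker of meningeal fibroblasts. With Lum and Ogn, which encode related small proteoglycans, it was 1 of 3 genes, of 16 on that list, whose KI libraries all lay below the WT libraries (12.1% of all genes did). Of the 16, 12 had higher means in KI with 6 libraries and 7 did without KI HP 2. The list's median was 0.18, and −0.08 without KI HP 2. Met, the hepatocyte growth factor receptor, measured 3.84, 7.74 and 7.54 CPM in WT and 1.82, 0.936 and 1.41 CPM in KI (−1.96, adjusted p = 0.0477). The gene C2cd4c (18.1, 20.9 and 17.1 against 8.57, 9.89 and 6.81 CPM, −1.27, adjusted p = 0.016) and the secreted signal gene Wnt4 (20.9, 19.2 and 16.3 against 10.6, 6.32 and 9.05 CPM, −0.92, adjusted p = 0.0452) fell likewise.

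The other 17 genes that fell without KI HP 2 overlapped between genotypes when it was kept. Those given here were named after their values were seen. Hap1, a huntingtin-binding protein of vesicle transport, measured 141, 144 and 154 CPM in WT, 80.2 and 71.1 CPM in KI HP 1 and 3 and 391 CPM in KI HP 2 (edgeR without it, adjusted p = 0.012). Trhr, the receptor of thyrotropin-releasing hormone, measured 4.58, 5.29 and 8.98 CPM in WT and 1.12 and 0.257 CPM in the same KI libraries (adjusted p = 0.0354), and Dio3, which inactivates thyroid hormone, 4.92, 2.90 and 5.08 CPM and 0.705 and 0.385 CPM (adjusted p = 0.0227). In each of these genes KI HP 2 lay above all 3 WT libraries.

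The metallothionein genes Mt1 and Mt2 encode small proteins that bind zinc and copper and are induced by metals and by glucocorticoids. Mt1 measured 104, 89.4 and 105 CPM in WT and 150.5, 172 and 208 CPM in KI (0.86 without KI HP 2, SE 0.148, edgeR adjusted p = 0.0452). Mt2 measured 50.5, 40.2 and 44.5 CPM in WT and 71.6, 70.3 and 108 CPM in KI (1.01, SE 0.168, adjusted p = 0.0418). Both were higher in every KI library, most of all in KI HP 3. They were the only called genes of 18 glucocorticoid targets and metallothioneins (edgeR without KI HP 2, which called 0.224% of all genes higher). The median of that list was 0.04, and 0.15 without KI HP 2. Atf5, a transcription factor of the mitochondrial stress response, measured 11.6, 13.03 and 11.9 CPM in WT and 19.3, 18.7 and 32.3 CPM in KI (1.096, adjusted p = 0.0489). Rbm3, an RNA-binding protein induced by cooling, measured 61.7, 54.8 and 65.3 CPM in WT and 98.9, 65.6 and 149 CPM in KI (1.05, SE 0.163, adjusted p = 0.0354). KI HP 2 was just above the highest WT library for Rbm3, and with the scaling of all 36 libraries just below it (68.0 against 68.5 CPM), so that the groups then overlap. Cirbp, another cold-induced RNA-binding protein, was higher without overlap (30.6, 30.3 and 36.9 against 38.3, 50.7 and 45.8 CPM) and was not called (edgeR without KI HP 2 adjusted p = 0.157).

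Of 22 genes for heat shock proteins and chaperones, 18 had lower means in both fits (medians −0.24, and −0.20 without KI HP 2), and 12 were lower without overlap (12.1% of all genes were). Hsp90aa1, an inducible chaperone, measured 1690.1, 1451 and 1601 CPM in WT and 1364, 1039 and 1041 CPM in KI (edgeR adjusted p = 0.313). Hspa4l, a relative of the Hsp110 chaperones, measured 197, 194 and 214 CPM in WT and 157, 156 and 127 CPM in KI (DESeq2 adjusted p = 0.06). The only member called on 6 libraries went the other way: Hspb8, a small heat shock protein, rose from 16.6, 13.7 and 14.3 to 20.1, 23.7 and 27.8 CPM (DESeq2 adjusted p = 0.0452). A list of 21 genes for the removal of hydrogen peroxide, the by-product of monoamine oxidase, also holds Sod1, which is a source of peroxide. Of the 21, 16 had higher means (median 0.24, and 0.13 without KI HP 2). Prdx1 (139, 116 and 117 against 148, 160.2 and 179 CPM), Prdx6 (224, 236 and 201 against 249, 329.6 and 309 CPM) and Sod1, which makes peroxide from superoxide (174, 149 and 137 against 178, 229 and 192 CPM), were among the 5 that were higher without overlap (11.9% of all genes were). A further 2 were lower without overlap (12.1% of all genes were), and 0 of the 21 was called by edgeR or by DESeq2 on 6 libraries. Immediate early genes, which respond to neuronal activity, had lower means in 16 of 24 cases (medians −0.19 and −0.23), and 0 were called by DESeq2 on 6 libraries. Without KI HP 2, DESeq2 called Fosl2 (adjusted p = 0.0152) and Homer1 (adjusted p = 0.00992) lower (2.88% of all genes were), and edgeR called 0. Glutamate receptor subunits had lower means in 15 of 25 cases, and 21 without KI HP 2 (medians −0.31 and −0.27), and potassium channel genes in 27 of 41 (medians −0.20 and −0.18), with Kcnd3 the only one of these 2 lists called by DESeq2 on 6 libraries (108, 113 and 127 against 84.4, 72.4 and 74.2 CPM, adjusted p = 0.00976).

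The remaining named rises are of lipid and signalling genes. Scd1, the stearoyl-CoA desaturase that makes monounsaturated fatty acids, measured 136, 144 and 121 CPM in WT and 224, 346 and 416 CPM in KI (1.28 without KI HP 2, SE 0.211, edgeR adjusted p = 0.0418). Pdlim2, an actin-linked ubiquitin ligase, measured 11.1, 7.96 and 6.84 CPM in WT and 24.02, 29.4 and 27.1 CPM in KI (1.58, SE 0.187, adjusted p = 0.0117). Its 3 KI libraries were close together and far above the WT libraries. Erbin, a scaffold that binds the receptor ErbB2, measured 75.9, 73.4 and 78.3 CPM in WT and 110.3, 205 and 171 CPM in KI (0.90, adjusted p = 0.0489). Wipf1, an actin regulator, measured 11.2, 11.03 and 10.1 CPM in WT and 17.5, 22.6 and 22.1 CPM in KI (0.89, adjusted p = 0.0418). Both were higher in all KI libraries, with KI HP 1 the lowest of them. In WT striatum the means were 317 CPM for Scd1, 33.9 for Pdlim2, 147 for Erbin and 23.7 for Wipf1. In WT hippocampus they were 140, 9.07, 79.7 and 11.3 CPM in that order (both scaled over all 36 libraries). How these rises relate to the myelin difference was not tested.

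**Figure D5:**
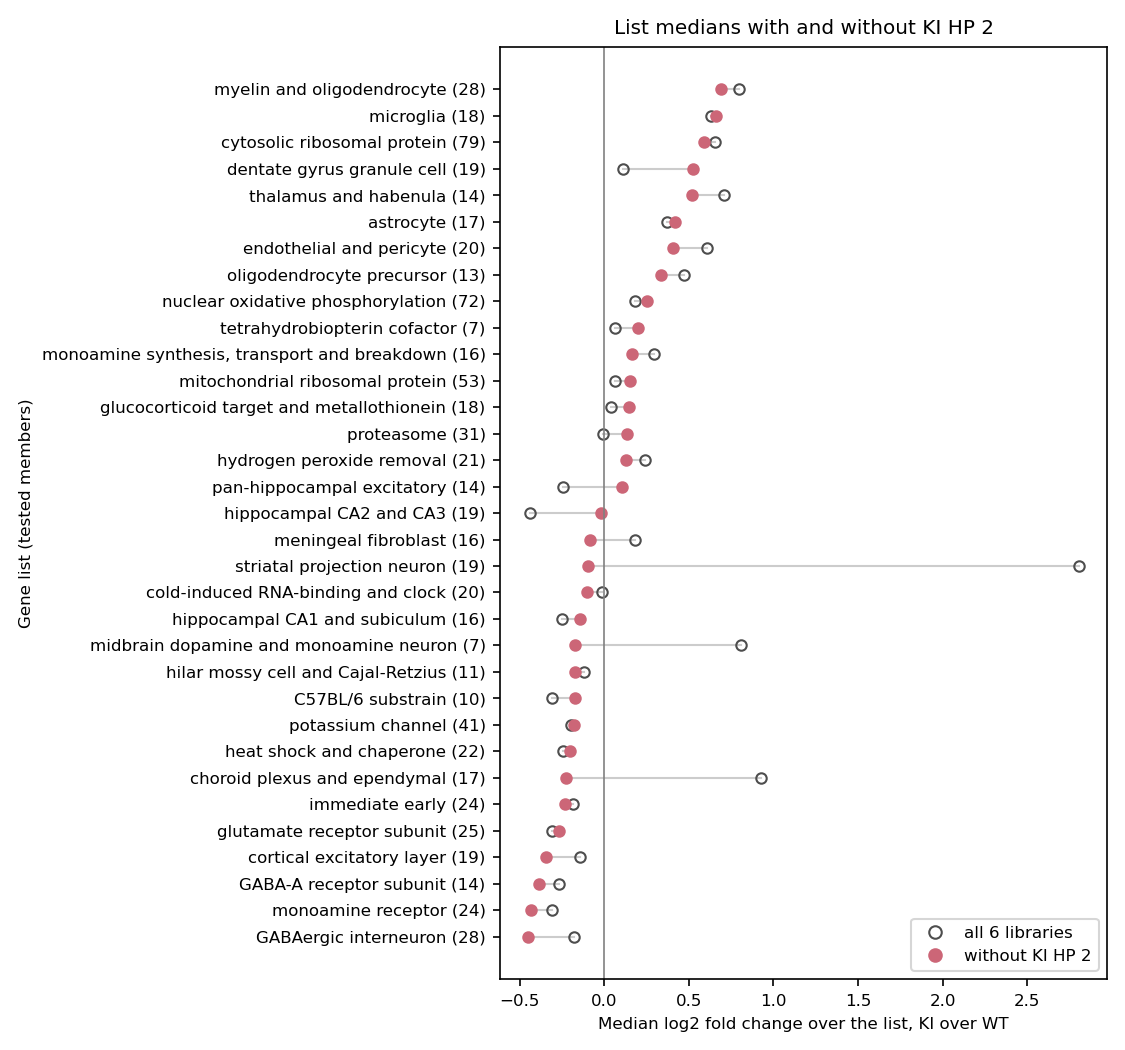
Median log2 fold change of KI over WT for each of the 33 gene lists, with all 6 libraries (open circles) and without KI HP 2 (filled), ordered by the latter, with the number of tested genes in brackets. The striatal list moves from 2.81 to −0.09 when KI HP 2 is left out, whereas the myelin, microglia and ribosomal lists stay between 0.59 and 0.80.

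For the lists not yet described, medians with 6 libraries and without KI HP 2 were −0.25 and −0.14 for CA1 and subiculum, −0.44 and −0.02 for CA2 and CA3, −0.24 and 0.10 for excitatory neurons of the whole hippocampus, and −0.12 and −0.17 for hilar mossy and Cajal-Retzius cells. They were −0.14 and −0.34 for layers of the cortex, 0.71 and 0.52 for thalamus and habenula, 0.81 and −0.17 for midbrain monoamine neurons, and 0.93 and −0.23 for choroid plexus and ependyma. Cold-induced RNA-binding and clock genes had medians of −0.01 and −0.10. The sign thus changed with KI HP 2 for striatal, midbrain, meningeal, choroid plexus, whole-hippocampal and proteasome genes.

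The hippocampal differences were set against those in the other 5 regions in a 12-group fit to all 36 libraries. Libraries of different regions with the same number may come from the same animals, which the labels do not say. The fit treated all 36 as independent. No gene differed in its genotype effect between hippocampus and the mean of the other regions (edgeR, 0 of 15367 genes, every adjusted p at 0.908 or above; 759 genes at an unadjusted p under 0.05). Without 8 libraries of the series whose markers were judged to go against their region label, 3 genes did (0.0191% of 15687). How well the markers of the other 28 match is not shown here. The counts of regions below use all 36 libraries, those 8 included. Gabra2 was lower in KI in 5 of 6 regions by mean and without overlap in 4, and its hippocampal effect did not differ from the others past the test (difference −0.41 over 28 libraries, adjusted p = 0.885). Mbp had a higher mean in KI in 6 of 6 regions and was non-overlapping in 4 (difference 0.97 over 28 libraries, adjusted p = 0.885). In PFc that mean rests on KI PFc 1, at 8903 CPM. The other KI libraries stood at 1959 and 1586 CPM there, and the WT mean at 2046 CPM. The KI libraries of SN ran from 980 to 15363 CPM (WT mean 6458 CPM). In Nac, KI Nac 1 stood at 24999 CPM (WT mean 4587 CPM) and is among the libraries judged against their label. Rbm3 and Atf5 had higher means in 6 of 6 regions and were each non-overlapping in 5, which for Rbm3 are the regions other than hippocampus under this scaling. Vgll3 was lower without overlap in hippocampus and overlapped in the other 5 regions, but the difference from the other regions did not pass (−3.07, adjusted p = 0.12).

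The authors' deposited table lists 185 genes at a DESeq2 q-value under 0.05 for hippocampus (1.05% of the genes with a q-value). Of these, 178 were also called in the same direction by DESeq2 on the 6 libraries here (96.2% of the authors' list and 68.7% of the list here). It shares 37 genes with the 60 that edgeR called without KI HP 2 (20.0% of the authors' list and 61.7% of the 60). All of the 4 genes called by voom are among the 60. Of the DESeq2 rises on 6 libraries, 63 of 206 (30.6%) are genes at least 2-fold higher in WT striatum than in WT hippocampus, and of the 53 falls 0 are, against 9.7% of all tested genes.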

How the data were processed

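Transcriptomes of 36 libraries (6 brain regions, 3 WT and 3 KI libraries each) were measured by mRNA sequencing (SMARTER kit, per the labels), and the 6 labelled HP are described here. The deposited gene table holds estimated counts per gene (9.9% of values are not whole, at a tolerance of 1e-06) and the authors' TPM values, and a deposited transcript table holds estimated counts per transcript. The genome build was GRCm38.p6 per the labels; aligner, counting tool and strand: not given in the sources used here. The authors' deposited comparison table gives log2 fold changes and q-values, made with DESeq2 per the file headers (version and settings not given in these headers). The 240 other per-sample columns were not used.

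Estimated counts were rounded, filtered (filterByExpr) and scaled by TMM. Genotypes were compared with edgeR 4.0.16 (quasi-likelihood, R 4.3.3), with DESeq2 1.42.0 and limma 3.58.1 (voom with sample quality weights) as alternatives, and p-values were adjusted by Benjamini-Hochberg over all tested genes at 0.05. SE is the absolute log2 fold change over the square root of F. The scripts were tested on simulated data. Length was read as estimated counts per TPM. Of 19025 genes listed, 18969 identifiers matched RefSeq.

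Named genes were Maoa, then genes with non-overlapping groups, an edgeR call without KI HP 2 and a log2 CPM averaging 1 or more (the 14 largest rises and falls by log2 fold change; only 10 falls qualified), and up to 5 members of each of 33 lists by p, plus those needed to account for a small count. The members and lists were chosen with earlier results of these data known. No 2 libraries were as close as sampling noise. The main fits did not pair libraries by replicate number. Deviations of same-numbered libraries from their group means correlated at 0.0774, 0.0699 and −0.184 across genes. Those of other pairs of a WT and a KI library ran from −0.167 to 0.208. The KI means include KI HP 2, which stands apart, so these values cannot show whether numbers mark a shared batch. Alternatives also covered RLE scaling, other low-count filters, a replicate block, a 12-group fit and leaving out each library. Total counts of 15836479 to 18863503 set the counting error, which is larger in genes of low CPM. Results for some listed genes are not reported here.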

Additional observations from a re-analysis of the deposited data

Results flagged for a closer look

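For 3 genes the genotype difference in hippocampus differed from the mean of the other 5 regions in edgeR's test of that difference (Benjamini-Hochberg adjusted over 15687 genes). The test used 28 libraries and left out 8 whose markers were judged to go against their region label, KI HP 2 among them. Of the KI libraries of SN and Nac, only KI SN 3 and KI Nac 3 remained. The test treated libraries of different regions as independent. Dcn, decorin, differed by −2.27 on the log2 scale (SE 0.353, adjusted p = 0.0428), Bace2, a protease related to the β-secretase, by −1.44 (SE 0.245, adjusted p = 0.0469) and Ccnd1, the cell cycle regulator cyclin D1, by −0.77 (SE 0.129, adjusted p = 0.0469). With all 36 libraries none of the 3 passed (adjusted p = 0.908 for each). Scaled over the 36 libraries, Bace2 stood at 5.34, 5.82 and 6.89 CPM in WT and 2.86, 7.71 and 1.86 CPM in KI hippocampus, with KI HP 2 above all WT libraries. Ccnd1 stood at 78.9, 71.0 and 75.4 CPM in WT and 63.9, 46.9 and 62.8 CPM in KI hippocampus, without overlap. Its mean was higher in KI in each of the other 5 regions, without overlap in PFc (56.8 ± 3.92 CPM in WT and 76.7 ± 13.1 in KI) and STR (37.4 ± 1.52 and 48.9 ± 3.37; SD, n = 3), so the difference holds values of both signs. Bace2 likewise had higher KI means in those 5 regions, without overlap in VTA (5.29 ± 0.942 and 7.32 ± 0.427 CPM). Dcn had them in 4, without overlap in VTA (19.7 ± 10.8 and 28.2 ± 0.944 CPM). These regional values use all 36 libraries, the 8 included. Dcn stood at 7.23 CPM in WT VTA 3 and at 26.2 and 25.7 CPM in the other WT VTA libraries, against 27.1 to 29.0 CPM in KI VTA. In KI SN it stood at 193, 3.72 and 26.7 CPM. WT VTA 3 and KI SN 1 are among the 8.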

How the results depend on the processing

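With all 6 hippocampal libraries edgeR called 0 genes under RLE size factors, both other filters, the replicate block and the 12-group fit, whereas DESeq2 called 259, voom with quality weights 4, and leaving out 1 library gave 0 to 60, the 60 without KI HP 2. Without KI HP 2, the 60 calls became 860 by DESeq2, 140 by voom, 425 with no low-count filter and 97 with the replicate block (44 shared with the 60), and leaving out 1 more library gave 3 to 875. The block left the 6-library count at 0 and put Maoa at a log2 fold change of 0.25. Hippocampus against the other regions gave 0 genes over 36 libraries and 3 over 28. Transcripts gave 0 by edgeR and 565 by DESeq2. In these results the cause of each change was not tested. Of the 24 genes named by the rule, 21 were called by DESeq2 on 6 libraries, 4 by voom and 0 by edgeR in each alternative that kept KI HP 2; their directions, and their calls without KI HP 2, were set by the rule and show nothing of stability. Maoa ranged from 0.16 to 0.33 when 1 library was left out. Of the list medians, 397 moved by less than the spread and 32 by more. The spread here is the SD of the list score over the 3 KI libraries, KI HP 2 included. It is therefore wide where KI HP 2 stands apart, as on the dentate list (5.78, 3.72 and 6.24 in KI). For such lists these counts show nothing of stability. With 3 libraries a group, genes near the detection limit, such as Tph2 at 0.234 CPM in KI HP 2, rest on few counts.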
